A study of Mus musculus with 60 samples.

Results

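Cd28, Ctla4 and Icos lie next to each other on mouse chromosome 1, with Pard3b on their far side, and their H3K27me3 was examined in C3H 10T1/2 mesenchymal progenitor cells that expressed wild-type or arginine-mutant histone H3. The locus was taken as a span of 1.2 Mb (mm10) chosen by the H3K27me3 peaks themselves: neighbouring regions in it were called in H3WT and had no peak in H3R8C or H3R26C cells, so the absence in these genotypes is described here and not tested. The span held 32 of 55450 annotated genes, of which the 4 named genes were the only protein-coding ones. It held 20 of the 20900 H3K27me3 regions of the whole series.

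The cells came from an established mouse mesenchymal line and carried a lentiviral cDNA for a human H3 with an HA tag, which was either wild type (H3WT) or had arginine 2, 8, 17 or 26 changed to cysteine (H3R2C, H3R8C, H3R17C, H3R26C). All 5 groups therefore shared the transgene, its tag, puromycin selection and the untouched endogenous H3 genes, so the tagged protein was only a part of the H3 in each cell. CUT&RUN, in which an antibody directs a nuclease to cut out the chromatin it binds, was done with antibodies to H3K27me3 and HA, in 3 labelled replicates per group. Replicates 1 and 2 of a group had identical peak lists, except that in H3R17C the identical H3K27me3 lists were those of replicates 2 and 3, and each identical pair was counted once. This left 2 H3K27me3 libraries each for H3WT, H3R2C, H3R8C and H3R26C, 1 for H3R17C (the identical pair, since replicate 1 was left out because its list was named for another mark), and 2 HA libraries per genotype. Libraries are called below by their replicate labels. The paper describes 3 biologic replicates for CUT&RUN, but no label says whether the libraries came from separate cultures. The tests therefore measure only the spread between these libraries.

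The 9 H3K27me3 lists held 20077 to 24598 peaks each and covered 2.32% to 4.25% of chromosome 1. The lists give no read depth. Signal means the coverage summed over a peak, and it was scaled by the median of the 5407 regions called in all 9 libraries, so that 1 is the level of a typical shared region. The 10 HA lists held 15344 to 52083 peaks, and the list of H3WT replicates 1 and 2 stood apart with the fewest and the widest peaks (median width 10.7 kb, against 0.800 to 1.60 kb in the 8 lists of the mutants).

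H3K27me3 is laid down by Polycomb repressive complex 2 (PRC2), which trimethylates lysine 27 of H3, spreads the mark over neighbouring nucleosomes and helps to keep lineage genes silent in cells of other lineages. CD28 is the receptor on T cells that delivers the second signal for activation after contact with CD80 or CD86. CTLA-4 binds the same ligands and restrains the response, whereas ICOS is an inducible relative of CD28 that binds ICOS ligand. Pard3b is a relative of Par3, a scaffold of the cell polarity complex, and has no part in the CD28 family. Mesenchymal progenitors are not T cells, and the peak lists hold no expression values.

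The sequences below show the places on which the results turn. The first pair are the promoters (250 bases before to 50 after the start site, RefSeq, GRCm38.p6) of Ctla4, which lay under an H3K27me3 peak in the H3WT, H3R2C and H3R17C libraries, and of Pard3b, which did not, at chr1:60908775-60909074 and chr1:61638574-61638873 on the plus strand. Capitals mark each CG dinucleotide, the letters searched, which read the same on both strands.
Ctla4 promoter: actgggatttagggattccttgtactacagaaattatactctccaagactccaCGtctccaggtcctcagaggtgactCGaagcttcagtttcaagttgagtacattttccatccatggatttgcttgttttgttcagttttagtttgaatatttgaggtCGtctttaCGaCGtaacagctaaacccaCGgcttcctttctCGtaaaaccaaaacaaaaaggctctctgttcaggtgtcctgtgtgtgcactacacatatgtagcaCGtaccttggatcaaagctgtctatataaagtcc
Pard3b promoter: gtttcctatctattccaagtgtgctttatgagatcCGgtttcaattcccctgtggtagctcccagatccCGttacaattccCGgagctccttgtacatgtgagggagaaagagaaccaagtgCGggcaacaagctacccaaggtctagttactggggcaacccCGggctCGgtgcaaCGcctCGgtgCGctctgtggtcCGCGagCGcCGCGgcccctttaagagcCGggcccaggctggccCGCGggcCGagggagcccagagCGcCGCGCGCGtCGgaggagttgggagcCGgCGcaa
The Ctla4 promoter held 8 CG dinucleotides at a GC content of 42.0%, and the Pard3b promoter held 26 at 62.7%. Over 32851 promoters of the same length the medians were 7 and 52.7%, and 94.6% held at least 1 CG. The Ctla4 promoter was therefore near the middle for CG number, and the unmarked Pard3b promoter was CG rich.

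The next sequence is from the strongest H3WT region of the locus, which overlapped the annotated gene Gm11591. It shows 300 bases around the peak summit at chr1:61196226-61196525 (plus strand, GRCm38.p6), again with CG in capitals.
R11 summit: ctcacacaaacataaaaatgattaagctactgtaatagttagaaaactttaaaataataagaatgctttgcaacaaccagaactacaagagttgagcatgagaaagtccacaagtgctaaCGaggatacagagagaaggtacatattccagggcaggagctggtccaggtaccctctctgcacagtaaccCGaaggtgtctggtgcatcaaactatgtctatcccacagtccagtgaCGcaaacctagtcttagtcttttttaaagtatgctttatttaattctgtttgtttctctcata
It held 3 CG dinucleotides at a GC content of 39.0%.

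H3K27me3 formed a broken run of peaks from the body of Ctla4 through Icos into the gene-poor interval beyond it in H3WT, H3R2C and H3R17C cells, and no peak was listed anywhere in the span in H3R8C or H3R26C cells. The span held 24 peaks in H3WT replicates 1 and 2 and 20 in H3WT replicate 3. It held 22 and 16 in the H3R2C libraries and 16 in the H3R17C library. It held 0 in both H3R8C and both H3R26C libraries. These counts chose the locus and carry no test.

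**Figure D1:**
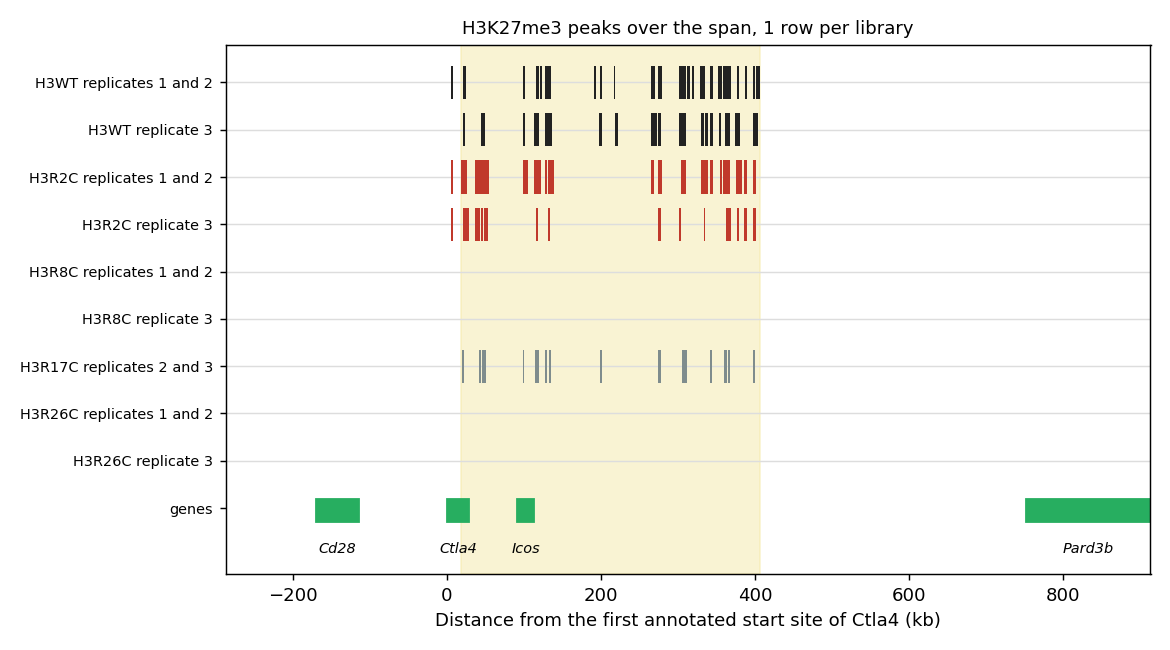
H3K27me3 peaks of the 9 libraries along the span, 1 row per library, with distance from the first annotated start site of Ctla4 in kb on the x axis, gene bodies in green and the run of regions called in both H3WT libraries shaded (peaks under 2.5 kb are drawn 2.5 kb wide). The 5 libraries of H3WT, H3R2C and H3R17C have peaks from Ctla4 through most of the shading, whose last region has peaks in H3WT alone, and the 4 of H3R8C and H3R26C have none.

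Peaks that overlapped were merged into regions, and a region was kept if both libraries of at least 1 genotype had a peak in it. The run of consecutive regions called in both H3WT libraries and in no H3R8C or H3R26C library, called the stretch below, reached from chr1:60905801-61293000, which is 387.2 kb, and held 17 regions. Across the genome, 479 such regions were found, of which 341 stood alone. The stretch was the run with the most regions, and the next, on chromosome 16, had 5. Of 12159 regions called in both H3WT libraries, 3.94% had no peak in any H3R8C or H3R26C library, 10.1% had none in H3R8C and 13.2% had none in H3R26C.

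The limits of the stretch did not follow the genes that name the locus. The first region lay 119 kb beyond the end of Cd28 if the region just before the stretch is counted, and the stretch ended 345.8 kb before the start of Pard3b. Only 3 of the 17 regions overlapped a protein-coding gene. These were R2 over Ctla4 and R4 and R5 over Icos, where R1 to R20 number the 20 regions of the span in order along the chromosome. R5 overlapped Icos only at its last bases, and 14 of the 17 regions lay beyond the end of Icos in the 292.7 kb up to the end of the stretch. In all, 12 overlapped no annotated gene. The protein-coding start site nearest to each of these 14 was that of Icos.

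Cd28 (chr1:60716800-60773359, plus strand) had no H3K27me3 peak over its body in any of the 9 libraries, and neither had Pard3b (chr1:61638824-62642284, plus strand), a gene of 1003 kb. The name Cd28 therefore marks the place and not a gene that carried the mark.

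Ctla4 (chr1:60887000-60915832, plus strand) had peaks over 18.6% of its body in H3WT replicates 1 and 2 and 6.94% in H3WT replicate 3. In H3R2C the share was 35.9% and 32.7%, and in H3R17C it was 8.15%. Both H3R2C values lay above both H3WT values. A peak fell within 1 kb of an annotated start site of Ctla4 in all 5 of these libraries. The body was bare in the 4 H3R8C and H3R26C libraries.

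Icos (chr1:60977927-61000320, plus strand) was covered over 9.15% and 8.35% of its body in H3WT, 20.5% and 0% in H3R2C and 7.59% in H3R17C. The H3R2C libraries thus fell on either side of H3WT. No library had a peak within 1 kb of the Icos start site, so the mark lay inside the gene and beyond its end. Again, H3R8C and H3R26C had no peak.

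Of 3171 protein-coding genes with a peak over the body in both H3WT libraries, 1.80% had none in any H3R8C or H3R26C library, and Ctla4 and Icos were among them by the choice of the locus. Of the 5 CD28 family receptors, 5 ligands and 8 T cell receptor signalling genes listed, 4, 3 and 6 had a peak in any library. Apart from Ctla4 and Icos, none of those marked in both H3WT libraries lacked a peak in all 4 H3R8C and H3R26C libraries. Of 5 CD28 family receptors, 4 were marked in both H3WT libraries, and the others of these, Btla and Pdcd1 (inhibitory receptors), kept peaks in all 4 H3R8C and H3R26C libraries. Btla was covered over 41.6% ± 2.12 (SD, n = 2) of its body in H3WT, 42.8% ± 1.27 in H3R8C and 17.3% ± 10.1 in H3R26C. Pdcd1, which encodes PD-1, was covered over 31.4% ± 19.1 in H3WT, 24.7% ± 6.18 in H3R8C and 43.1% ± 24.3 in H3R26C, and had no peak in H3R2C or H3R17C.

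Among 5 ligand genes, Icosl and Pdcd1lg2 were marked in both H3WT libraries and in all 4 H3R8C and H3R26C libraries. Pdcd1lg2, a ligand of PD-1, was covered over 24.4% ± 13.1 in H3WT, 22.0% ± 13.7 in H3R8C and 31.5% ± 18 in H3R26C (SD, n = 2 each). Cd86 had a peak in 1 of the 2 H3WT libraries, in both libraries of H3R2C and of H3R26C and in H3R17C, and in neither of H3R8C. Among T cell receptor signalling genes, Cd247, Cd3d, Cd3e, Cd3g and Zap70 were marked in both H3WT libraries and in all 4 H3R8C and H3R26C libraries. The CD3 chain gene Cd3e was covered over 100% of its body in H3WT and H3R8C and over 95.6% ± 6.17 in H3R26C. Of 7 genes of the PAR polarity complex, Pard6b and Prkcz were marked in both H3WT libraries and neither lacked a peak in all 4 H3R8C and H3R26C libraries. These lists were chosen with results of these data known and are given as counts.

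Coverage between the limits of the stretch takes in all peaks there, also those of R3 and R18, which lie between the limits but are not among the 17 regions because 1 H3WT library had no peak in them. Peaks covered 21.8% and 21.0% of it in H3WT (mean 21.4% ± 0.575, SD, n = 2), 26.2% and 13.0% in H3R2C (19.6% ± 9.35) and 11.8% in the H3R17C library. The H3R2C libraries lay above and below H3WT, and that of H3R17C below both genotypes. Coverage was 0% in H3R8C and H3R26C. The lower H3R2C coverage went with a lower coverage of the whole chromosome in that library, 2.32% against 4.17%, and H3R17C covered 2.59% of chromosome 1.

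**Figure D2:**
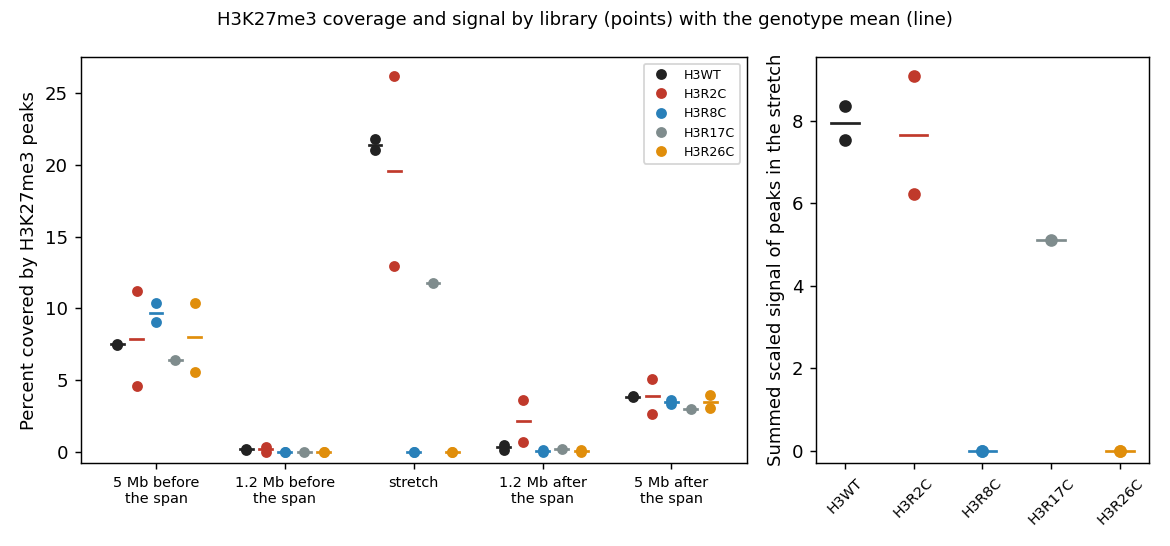
Left, percent of the stretch and of its surroundings covered by H3K27me3 peaks, and right, the summed scaled signal of the peaks in the stretch, with 1 point per library and a line at the genotype mean. H3R8C and H3R26C sit at 0 in the stretch but at 3.01% to 10.4% in the 5 Mb on either side of the span.

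The summed scaled signal of all peaks between the limits was 8.38 and 7.54 in H3WT, 9.10 and 6.23 in H3R2C and 5.11 in H3R17C. The H3R2C values lay on either side of those of H3WT. Over the 17 regions alone the sums were 7.59 and 7.16 in H3WT, 6.64 and 4.15 in H3R2C and 4.55 in H3R17C, with both H3R2C libraries below both H3WT libraries, so the order depended on peaks outside the 17 regions, among them those of R3 with 1.93 and 1.76 in H3R2C. The 1.2 Mb before the span had no peak in the 4 H3R8C and H3R26C libraries and was covered over 0.113% and 0.196% in H3WT. Over a wider distance all genotypes had peaks. In the 5 Mb before the span, peaks covered 9.70% ± 0.948 in H3R8C and 7.96% ± 3.37 in H3R26C, against 7.48% ± 0.0495 in H3WT (SD, n = 2 each). In the 5 Mb after it the values were 3.47% ± 0.228, 3.48% ± 0.663 and 3.84% ± 0.0594.

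In the 1.2 Mb before the span, coverage was 0% to 0.296% over the 9 libraries. In the 1.2 Mb after it, coverage was 3.62% in H3R2C replicates 1 and 2 and 0% to 0.654% in the other 8. The nearest kept regions on either side lay at chr1:59352501-59355400 and chr1:62944751-62954650, at 1550 and 1652 kb from the stretch, and both were called in H3R2C alone. The nearest region before it that both H3WT libraries called, chr1:59046601-59085900, was called in all 9 libraries. The one after it, chr1:62994951-63004400, was called in 7. In H3R8C the interval without a peak reached over 4121 and 3914 kb, and in H3R26C over 3737 and 3952 kb. Much of this interval was bare in the other genotypes too. The H3R17C library had no peak for 1807 kb before the first region of the span and for 1705 kb after the last. In the H3WT and H3R2C libraries these distances were 847.35 to 1538 kb and 1362 to 1705 kb.

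The peaks of the span were of middling strength. Their median rank by signal within their own list was at a percentile of 45.4 to 52.8 in the 5 libraries, and the strongest peak of each library was at a percentile of 78.2 to 93.8. Maximum coverage under a peak was 5 to 16. The median peak width was 2.5 to 3.52 kb, and the longest peak, in H3R2C replicates 1 and 2, was 15.9 kb.

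A peak list ends at a lowest level, so a region can lack a peak because its signal is just under it. The lowest scaled signal that the 4 H3R8C and H3R26C lists held was 0.119 to 0.189. The H3WT mean of each of the 17 regions, which ranged from 0.210 to 1.09 with a median of 0.348, was above all 4 levels, also when only the strongest single peak of a region was taken. In 12 regions both H3WT libraries were above the highest level, and in 5 (R4, R7, R8, R14 and R20) 1 of them was under it. In 8 of the 17 the mean was over 2 times the highest level. The other 9 regions were nearer to it, and a lower signal there in H3R8C or H3R26C would go unlisted.

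**Figure D3:**
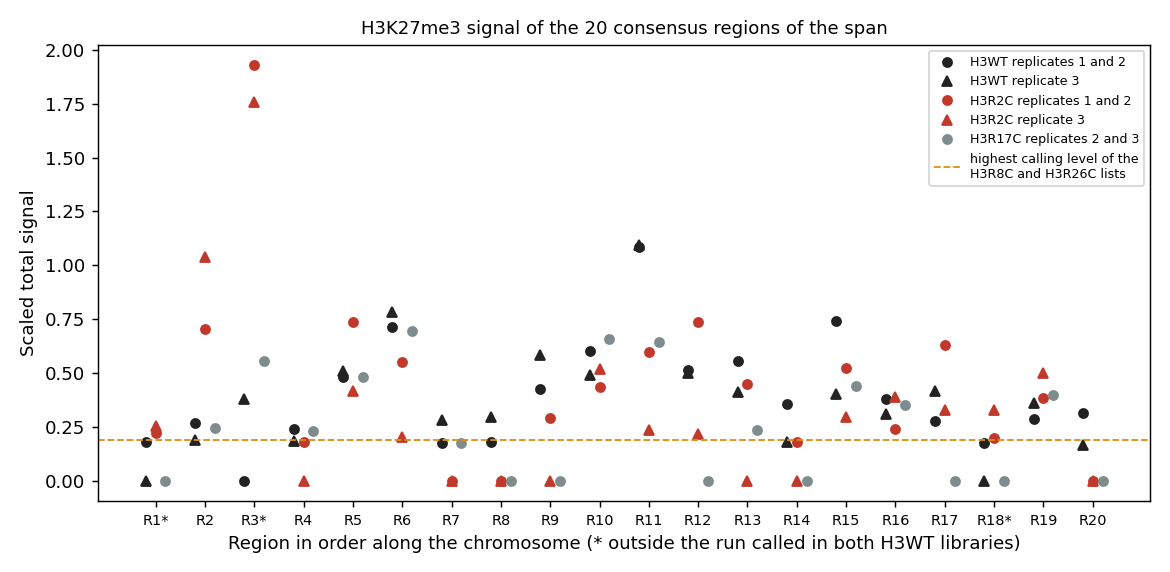
Scaled total H3K27me3 signal of the 20 regions of the span, in order along the chromosome, in the H3WT, H3R2C and H3R17C libraries (circles for the first library of a genotype, triangles for replicate 3). H3R8C and H3R26C are at 0 throughout and not drawn, the dashed line is the highest level at which one of their lists ends, 0.189, and R3 stands out with 1.93 and 1.76 in H3R2C.

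The difference between H3R2C and H3WT was not what the locus was chosen for, but the H3WT peaks were. All 20900 regions were fitted with limma on log2(scaled signal + 0.25), and p-values were adjusted over all of them. Of the 17 regions of the stretch 3 were lower and 1 was higher, against 12.4% lower and 17.8% higher over all regions. The median log2 difference was -0.49 in the stretch and 0 over all regions. The H3R2C mean was below the H3WT mean in 13 of the 17 regions and above it in 4. Because each region had to be called in both H3WT libraries, the choice of the regions itself favours a lower value in H3R2C, and these counts support no direction. The 4 H3R8C and H3R26C libraries, which share the estimate of the spread, are at 0 in the stretch by its choice. With the H3WT and H3R2C libraries alone, an alternative added after seeing the data, the counts were again 3 and 1.

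The higher signal in H3R2C lay over and just beyond Ctla4. R2 (chr1:60905801-60915950) covers the Ctla4 promoter shown above, the last annotated start site and the gene from there to its end. Its scaled signal was 0.268 and 0.190 in H3WT and 0.702 and 1.04 in H3R2C. The 2 genotypes did not overlap, and the difference was 1.22 ± 0.26 (SE) on the log2 scale with an adjusted p of 0.0154 by limma, and of 0.0318 with the H3WT and H3R2C libraries alone. It was 0.243 in H3R17C, within the range of H3WT. The peak over the Ctla4 promoter was 3.15 and 2.00 kb wide in H3WT, 7.85 and 7.95 kb in H3R2C and 2.35 kb in H3R17C. The next region, R3 (chr1:60923551-60942050), lies between Ctla4 and Icos in no gene and is not among the 17 regions because 1 H3WT library had no peak there. Its signal was 0 and 0.379 in H3WT, 1.93 and 1.76 in H3R2C and 0.558 in H3R17C. It was the strongest region of the locus in H3R2C and was singled out after its values were seen. Since it was kept as a region only because both H3R2C libraries had a peak in it, its difference is given as a description with no test. By maximum coverage in place of total signal the difference in R2 was 0.14 with an adjusted p of 0.769, and without H3WT replicate 3 the adjusted p was 0.0542.

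The 3 regions called lower, R7, R8 and R20, lay in the gene-poor interval beyond Icos, and none had a peak in either H3R2C library. They were kept as regions only through H3WT, so they are described with no test. R7 (chr1:61084601-61088100) was at 0.173 and 0.283 in H3WT and at 0.177 in H3R17C. R8 (chr1:61103701-61109250) was at 0.179 and 0.295 in H3WT, and R20 (chr1:61288501-61293000), at the right end, at 0.314 and 0.167, and neither was listed in H3R17C. All 3 had an H3WT library under the highest level at which a list of H3R8C or H3R26C ends. Without H3R2C replicates 1 and 2, 10 regions of the stretch were called lower and 1 higher.

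R11 (chr1:61187851-61197550), the strongest region in H3WT, had 1.08 and 1.09 there, 0.596 and 0.237 in H3R2C and 0.642 in H3R17C. Both H3R2C libraries and the H3R17C library were below both H3WT libraries, but the difference of -1.06 ± 0.32 between H3R2C and H3WT had an adjusted p of 0.0517. That call depended on the setting: the adjusted p by limma was 0.0237 with a pseudocount of 1 and 0.0301 without the trend. With the H3WT and H3R2C libraries alone it was 0.0923. Without H3R2C replicates 1 and 2 the difference was -1.46. R11 was singled out for its high H3WT signal, and this choice itself favours a lower value in H3R2C. These values therefore support no direction. R6, just beyond Icos, had 0.713 and 0.782 in H3WT, 0.549 and 0.204 in H3R2C and 0.695 in H3R17C (adjusted p = 0.147). R10 had 0.603 and 0.491 in H3WT, 0.436 and 0.520 in H3R2C and 0.658 in H3R17C, with overlapping values and a log2 difference of -0.13 ± 0.23. R19, near the right end, had 0.288 and 0.359 in H3WT, 0.384 and 0.500 in H3R2C and 0.398 in H3R17C, where the fit gave 0.27 ± 0.21 (adjusted p = 0.379).

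Peaks of the locus were kept in part by H3R2C and H3R17C. Both H3R2C libraries had a peak in 10 of the 17 regions, 1 had it in 4, and neither had it in 3, where 20.3% of all 12159 regions called in H3WT had none in H3R2C. Of the 479 regions of the genome with the same pattern in H3WT, H3R8C and H3R26C, 34.2% were called in both H3R2C libraries and 43.0% in neither. The H3R17C library had a peak in 11 of the 17, against 39.2% of those 479 regions and 82.8% of all 12159 regions of H3WT. In 8 regions both H3R2C libraries and H3R17C had a peak. The H3R17C value was below both H3WT values in 9 regions and above both in 2, with no replicate to set beside it.

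The 17 regions were somewhat poorer in GC, CG dinucleotides and repeats than the other H3WT regions of the chromosome, with no test made. Their GC content was 37.0% to 42.5% with a median of 40.4%, against a median of 42.3% in the 890 other regions of chromosome 1 called in both H3WT libraries. They held a median of 6.59 CG dinucleotides per kb against 8.24, and 14.8% repeat-masked bases against 21.9%. They were also shorter (median 5.55 against 8.15 kb) and weaker in H3WT (0.348 against 0.506). All these medians lay between the 5th and 95th percentiles of the other regions.

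One region, R16, had the same left edge in all 5 libraries that had it, and the sequence at this edge is shown for that reason: chr1:61252041-61252240 (plus strand, GRCm38.p6), with the 140 bases on the peak side of the edge in capitals.
R16 left edge: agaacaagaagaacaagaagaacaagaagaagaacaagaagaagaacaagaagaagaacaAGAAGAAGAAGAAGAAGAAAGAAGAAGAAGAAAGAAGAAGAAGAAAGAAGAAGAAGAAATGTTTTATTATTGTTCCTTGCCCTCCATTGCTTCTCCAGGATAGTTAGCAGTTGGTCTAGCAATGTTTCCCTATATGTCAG
The edge falls inside a tract of AAG units. Of the 300 bases before the edge 100% were repeat-masked, and of the 300 after it 32.0%. Peaks were recorded on a grid of 50 bp. Whether reads in the repeat could be placed was not tested. R16 had 0.380 and 0.308 in H3WT, 0.240 and 0.391 in H3R2C and 0.351 in H3R17C, so the genotypes overlapped.

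Outside the span, the gene whose coverage was most like that of the stretch over the 9 libraries was Duxbl2 (chr14:26118349-26129763), a double homeobox gene with near-identical copies beside it, whose value is uncertain for that reason. Its root mean square difference was 2.69 percentage points. Rtp2 (3.88), Ddx19b (3.89), Tdrd1 (5.22) and Mylk4 (5.48) followed. Duxbl2, Rtp2 and Mylk4 were at 0% in all 4 H3R8C and H3R26C libraries. By contrast, Ddx19b was covered over 6.48% and 7.88% of its body in H3R8C, and Tdrd1 over 4.91% in H3R8C replicates 1 and 2.

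HA peaks in the stretch numbered 5 and 2 in H3WT, 3 and 4 in H3R2C, 5 and 3 in H3R8C, 3 and 5 in H3R17C and 1 and 2 in H3R26C. HA peaks were thus listed in the stretch also in the 4 libraries of the genotypes without H3K27me3 peaks there. They covered 10.45 and 2.6 kb of it in H3R8C and 1.15 and 2.45 kb in H3R26C. Whether the rest of its sequence could be recovered in these libraries was not tested. The highest maximum coverage of an HA peak in the span was 4 to 15 per library.

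**Figure D4:**
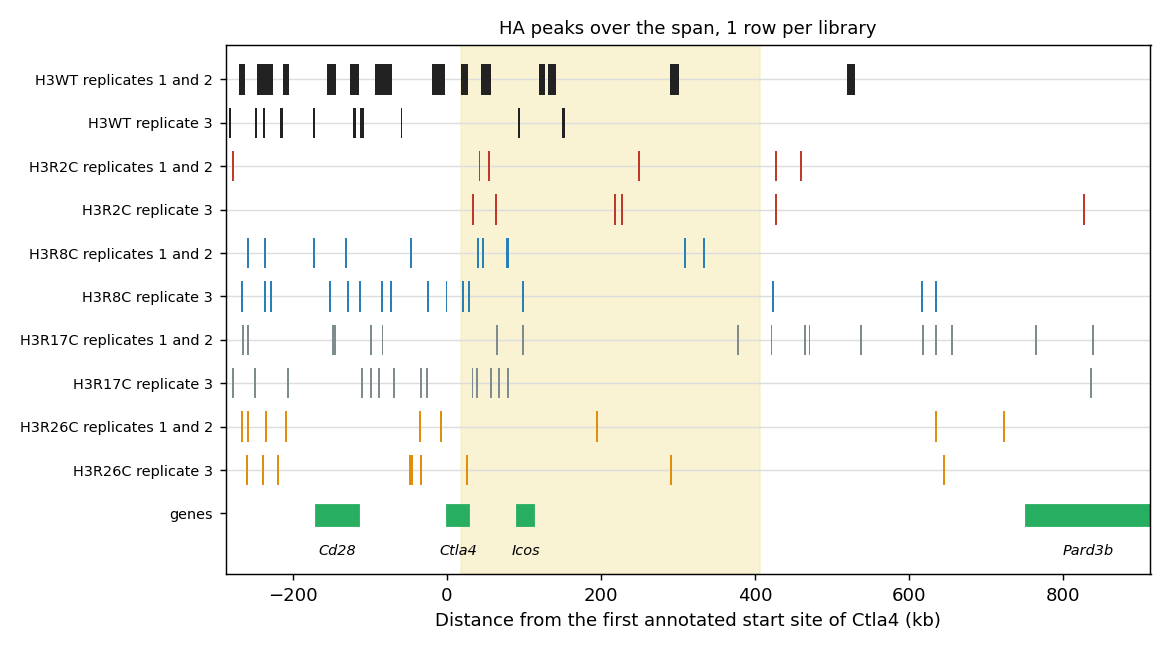
HA peaks of the 10 libraries along the span, drawn as in the map of H3K27me3 peaks (peaks under 2.5 kb are drawn 2.5 kb wide). Each library has at least 1 peak in the shaded stretch, and those of H3WT replicates 1 and 2 are the widest.

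HA peaks covered 13.3% and 2.07% of the stretch in H3WT, 0.594% and 1.42% in H3R2C, 2.70% and 0.671% in H3R8C, 0.581% and 1.07% in H3R17C and 0.297% and 0.633% in H3R26C. The first H3WT library was far above the rest. Both H3R26C values were below the 1.5% and 1.62% of chromosome 1 that HA peaks covered in the same lists, at ratios of 0.198 and 0.390, the lowest of the 10 libraries. H3R8C and H3R26C together had 1.08% ± 1.10 and H3WT and H3R2C together 4.35% ± 6.0 (SD, n = 4 each), a difference of -3.27 percentage points that was within the spread of the libraries (exact permutation test, two-sided, p = 0.343, where 0.0286 is the smallest p that 70 arrangements allow). Each side of this comparison joins 2 genotypes, so the spread also holds differences between genotypes and between their lists. Without H3WT replicates 1 and 2 the difference was -0.285, and without both H3WT libraries it was 0.0678 (exact permutation p = 0.714 and 0.867). Divided by the coverage of chromosome 1 in the same list, the difference was -0.691 (exact permutation p = 0.171).

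**Figure D5:**
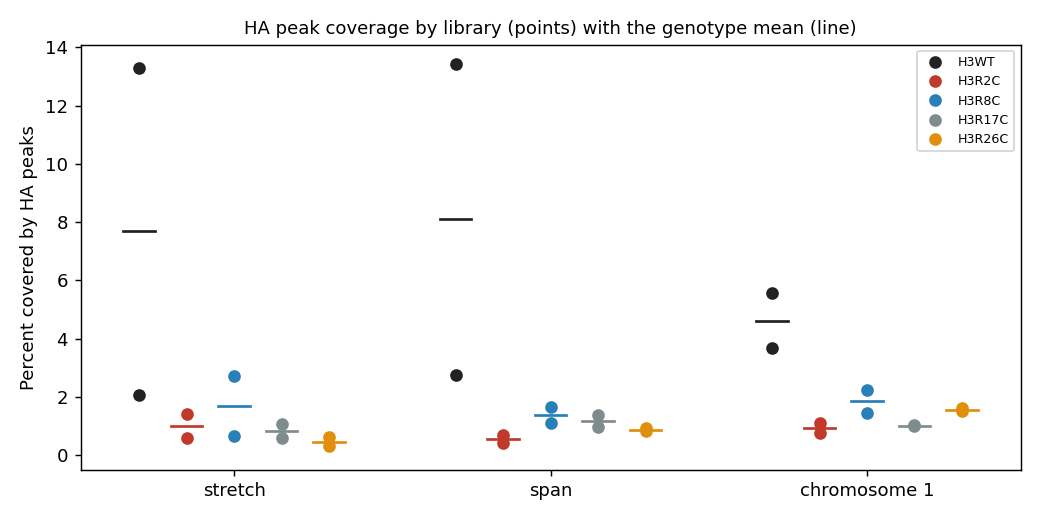
Percent of the stretch, of the span and of chromosome 1 covered by HA peaks, with 1 point per library and a line at the genotype mean. The high point of H3WT at 13.3% in the stretch belongs to the list with the widest peaks, which also covers 5.57% of chromosome 1, and all mutant libraries are at or below 2.70%.

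HA peaks over the 4 genes varied between libraries. Cd28, which had no H3K27me3, had HA peaks in both H3WT libraries over 40.6% and 5.75% of its body, in both H3R8C libraries over 2.92% and 3.18% and in 1 H3R17C library over 3.27%. Ctla4 had an HA peak in H3WT replicates 1 and 2 (31.2% of the body), H3R8C replicate 3 (4.62%) and H3R26C replicate 3 (4.86%), and in no H3R2C library. Icos had one in H3WT replicate 3 (13.8%), H3R8C replicate 3 (3.80%) and H3R17C replicates 1 and 2 (4.47%). Pard3b, by far the longest, had HA peaks in 9 of 10 libraries and over 4.94% of its body in H3WT replicates 1 and 2, against 0.0747% to 0.643% in the libraries of the mutants.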

How the data were processed

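CUT&RUN of C3H 10T1/2 cells was deposited as 30 labelled lists of H3K27me3 and HA peaks. As the study's methods and the submitters' notes state, the authors aligned reads to mm10 with Rsubread and called peaks per sample with SEACR 1.3 (stringent, norm, 0.01). The deposited signal is coverage summed over each peak, not scaled for depth. Since a share of peaks is kept, lists of unlike depth end at unlike levels. IgG controls were not used here.

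Identical lists were counted once. Peaks were merged over 8 libraries, and regions called in both libraries of a genotype were kept. Signal was divided by the median of regions called in every library. H3R2C was compared with H3WT by limma 3.58.1 (R 4.3.3, trend, Benjamini-Hochberg, two-sided, threshold 0.05) on log2(scaled signal + 0.25), with all 8 libraries in the fit, since lists hold no reads for a count test. HA coverage was compared by an exact permutation test. The fit was first checked on simulated data. Genes were those of GENCODE vM21 and sequences those of RefSeq (GRCm38.p6). Promoters of 2 of the 4 named genes, Ctla4 and Pard3b, matched. The text gives the 4 named genes in each library, regions of the span, pathway genes by list and the 5 genes nearest in coverage. Alternatives varied the pseudocount, scaling, trend, peak threshold, merging, overlap, filter and libraries. Members and lists were chosen with earlier results of these data known. One gene of the T cell receptor list is not reported here.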

Additional observations from a re-analysis of the deposited data

Results flagged for a closer look

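Within the 4 HA libraries of H3WT and H3R2C as a set, H3WT replicates 1 and 2 stood far above the rest with 13.3% of the stretch covered, and within the 4 of H3R8C and H3R26C, H3R8C replicates 1 and 2 did with 2.70%. The gap to the nearest other library was 0.884 and 0.844 of the whole range, over Dixon's critical value of 0.829 for 4 samples, which chance passes in about 1 of 20 groups. Each set of 4 joins 2 genotypes, so a difference between genotypes can raise such a gap too.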

How the results depend on the processing

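Coverage of the stretch in H3R8C and H3R26C was 0% by its choice, and no alternative run could change it. The limits depended on the setting. With the upper 50% of peaks the stretch held 8 regions over 255.1 kb. These peaks covered 14.2% in H3WT and 7.58% in H3R17C of the stretch within the limits given above, not of the shorter one. With a region called only where peaks covered at least 50% of it, the stretch held 12 regions over 302.6 kb. It then began at chr1:60985751, beyond R2. Its length was 1252 kb with peaks merged within 1 kb. When 1 library was left out, the length was 385.0 to 2921 kb (17 to 24 regions) against 387.2 kb. The longer values were those without H3WT replicate 3 (1249 kb) or H3WT replicates 1 and 2 (2921 kb). Coverage within the limits given above was 21.0% to 21.8% in H3WT and 13.0% to 26.2% in H3R2C without 1 library. Within 1 kb of a start site 1 gene in place of 2 was marked in all libraries of H3WT and of H3R17C, since Icos has no peak there. Of the regions that differed in H3R2C, 0 were higher with signal as deposited, with maximum signal or with the upper 50% of peaks, and leaving out 1 library gave 3 to 10 lower and 0 to 1 higher. With a pseudocount of 1 or without the trend 4 were lower, R11 added. Single values changed sign for R19 (-0.12, maximum signal), R15 (0.00036) and R16 (0.0062) without H3WT replicates 1 and 2, R5 (-0.16), R16 (0.11) and R17 (-0.033) without H3R2C replicates 1 and 2, and R12 (0.38 without H3R2C replicate 3, -0.18 without H3WT replicate 3). The cause was not tested. No region of the stretch passed a filter on a mean scaled signal of 0.5, taken over all 8 libraries of the fit. The 4 libraries of H3R8C and H3R26C are at 0 there by the choice of the stretch. The filter therefore says little about the strength of these regions in H3WT. The difference in HA coverage was -4.52 to -0.285 without 1 library and 0.0678 with H3WT left out, chosen after seeing the data. Replicate numbers did not pair the samples (correlations of deviations 0.0018 to 0.159), and with the replicate block 3 regions were lower and 1 higher, as without it, and HA coverage had an exact permutation p of 0.333. Lists without reads limit what an unlisted region can show.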
